A study of Drosophila melanogaster with 6 samples.

Results

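Small nucleolar RNA genes (snoRNA genes) were followed in the eye-antennal imaginal discs, from which eyes, antennae and head cuticle form, of Drosophila melanogaster in the third larval instar, with and without a dTet transgene. They were taken as the genes of the count table whose symbol starts with "snoRNA:" and that held 10 or more read pairs over the 6 libraries. Of 287 such symbols among 17609 genes in all, 222 reached that number. They were parted by name into 108 Psi genes (box H/ACA), 61 Me genes (box C/D) and 53 genes with other names. The 3 control samples carried ey-Gal4 over W1118, and the 3 dTet samples carried ey-Gal4 with UAS-dTet, so the driver was common to both groups. Gal4 under ey acts mainly in the eye field, whereas whole eye-antennal discs were extracted, so that fewer cells of a type and less RNA per cell cannot be told apart. Both groups were raised at 25 °C for the experiment and kept at 18 °C otherwise. The 3 samples of each group are called biological replicates in the labels.

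SnoRNAs are short nucleolar RNAs that act as guides within ribonucleoprotein particles. Box H/ACA snoRNAs pair with ribosomal RNA and direct the isomerisation of a uridine to pseudouridine by the dyskerin enzyme, called Nop60B in the fly, whereas box C/D snoRNAs direct ribose methylation by fibrillarin. A few, of which U3 is the best known, serve the cleavage of the ribosomal RNA precursor in place of a modification. Most fly snoRNAs lie in introns of other genes and are released when the intron is spliced out and trimmed. A Psi or Me symbol gives the ribosomal RNA and the position that the snoRNA is assigned to, and letters after it mark copies assigned to 1 position.

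Between 16395675 and 20242356 read pairs were counted per library. Correlations of log2 CPM (read pairs of a gene scaled to the library size) across genes, which are not independent replicates, were 0.965 to 0.976 within groups and 0.909 to 0.932 across them. The driven gene Tet was measured at 316, 348 and 385 CPM in control replicates 1, 2 and 3, and at 365, 457 and 416 CPM in dTet replicates 1, 2 and 3. The groups overlapped, and its log2 fold change of 0.24 (SE 0.13) did not pass the threshold (edgeR adjusted p = 0.244); the counts do not tell a transgene from the resident gene. All 9 markers of the eye-antennal disc were detected, with summed levels of 1545 to 1599 CPM in controls and 1087 to 1139 CPM in dTet. All 9 were called: ey, so, eya, gl, elav and ato were lower, with log2 fold changes from -6.66 for gl to -0.62 for ato, and Dll, ct and hth were higher, at 0.92, 0.90 and 0.62. Muscle markers summed to 203 to 257 CPM in controls and 303 to 487 CPM in dTet, with 1 of 5 called higher. Fat body markers summed to 601 to 2581 and 412 to 1474 CPM, hemocyte markers to 144 to 208 and 142 to 160 CPM, and neuroblast markers to 57.1 to 67.8 and 47.7 to 49.3 CPM in the same order. No gene of the last 3 lists was called, none of the 5 marker lists held a gene without counts, and the part of these cells, or of the disc markers' change, in the snoRNA differences was not tested.

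The Psi genes were better covered than the Me genes. Nearly every Psi symbol reached the count minimum, 108 of 109, against 61 of 103 Me symbols and 53 of 75 others. No count was held by 41 symbols, none of them Psi. Many of these Me and other symbols, such as the copies of Me28S-G1083 in Nop60B, overlap an exon of their host on the same strand. Read pairs over both were left out of the counts, so a count of 0 there does not give the level. Psi genes had a median length of 140 bases and a median of 461.5 read pairs over the 6 libraries, whereas Me genes had a median length of 82 bases and a median of 44. Per length, the median level was 2.81 CPM per 100 bases for Psi, 0.41 for Me and 1.12 for other names. The members just inside the minimum, at 10 read pairs, were Me28S-A2589c, Me28S-A2958, U31:54Eb and snR38:54Eb. Those just outside it, at 9, were Me28S-A1666a, Me28S-A2634a and Psi18S-525i.

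The members were spread over all major chromosome arms, with 31 on X, 37 on 2L, 72 on 2R, 39 on 3L, 42 on 3R and 1 on chromosome 4 of the dm6 genome. A host gene that held the whole snoRNA on the same strand was found for 210 of the 222, and none of these overlapped an exon of its host. This follows from the counting, because read pairs over a snoRNA and a host exon were left out. Symbols that overlap a host exon could therefore hardly reach the count minimum. The 86 hosts were coding genes for 173 members, snoRNA host genes without coding sequence (Uhg) for 30 and other genes for 7. Intron reads are not counted apart in the table, so read pairs of a snoRNA and of the unspliced intron around it cannot be told apart. The Psi genes are assigned to 18 positions of 18S (45 genes) and 36 of 28S (63 genes), of which 7 and 12 have more than 1 copy. The most copies belong to Psi18S-525, with 10 members, and to Psi18S-640, with 7. Read pairs that matched several copies equally were left out of the counts, so the split between copies is uncertain.

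The summed level of the Psi genes was 2.00 times as high in the discs with dTet, but 1 control library was far closer to them than the others. The 108 Psi genes together stood at 1082, 533 and 654 CPM in control replicates 1, 2 and 3, and at 1463, 1604 and 1466 CPM in the dTet replicates. All 3 dTet libraries were above all 3 controls, and the dTet libraries lay close together. The mean was 756 ± 289 CPM in controls and 1511 ± 80.7 CPM in dTet (SD, n = 3 each), a ratio of 2.00, which was 1.40 against control replicate 1 alone. The highest control was 2.03 times the lowest, so the spread among controls was as wide as the ratio of the means.

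The C/D genes of the Me class differed less. The 61 Me genes summed to 59.3, 44.1 and 42.0 CPM in controls and to 59.2, 66.2 and 57.8 CPM in dTet. Here the groups overlapped, because control replicate 1 was above dTet replicates 1 and 3, and the ratio of the means was 1.26. The genes with other names summed to 1367, 1069.6 and 1429 CPM in controls and to 1509.8, 1594 and 1496 CPM in dTet, a ratio of 1.19. This sum was ruled by a single gene, Tudor-SN-a, which held 38.6% to 60.4% of all snoRNA read pairs of a library. Without it, the other 52 genes stood at 267, 105 and 145 CPM in controls and at 292, 334 and 328 CPM in dTet, a ratio of 1.85. Some C/D-type genes carry other names, so the Me class does not stand for all of them. The median log2 fold change was 1.04 for the 4 tested Or-CD genes and 1.00 for the 3 U3 genes. It was 0.10 for the 4 tested genes with other U numbers.

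**Figure D1:**
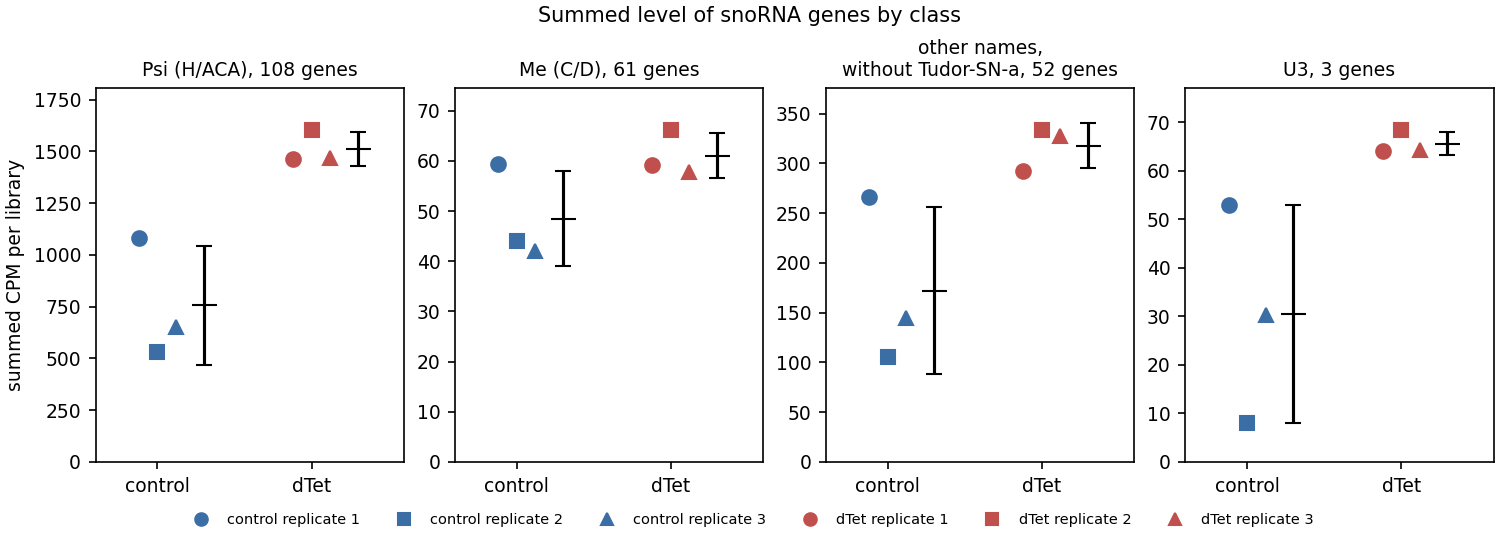
Summed CPM of snoRNA genes in each library, by class, with the mean and SD of each group (n = 3) as a bar beside the points; each vertical axis starts at 0. The 3 dTet libraries lie above the 3 controls for Psi, for other names without Tudor-SN-a and for U3, control replicate 1 is the highest control in each panel, and for Me it reaches 59.3 CPM, within the dTet range.

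The controls spread more widely in snoRNA genes than in the genome at large. Of the 222 members, 154 had enough counts to be tested (96 Psi, 23 Me and 35 others). Over these the median SD of log2 CPM among the 3 controls was 0.57, against 0.23 over all 9417 tested genes. Among the dTet libraries it was 0.38 against 0.16. The spread was wide at every level of expression: for the 10 members above a log2 CPM of 5 the median SD among controls was 0.81, against 0.18 for the 4771 other genes at that level.

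Most of that spread had 1 direction. Control replicate 1 was the highest control for 115 of the 154 members (74.7%), against 43.8% of all tested genes, and for 76 of the 96 Psi genes. Control replicate 2 was the lowest control for 95. The median difference between control replicates 1 and 2 was 0.86 on the log2 scale over the members (1.08 for Psi, 0.57 for Me and 0.88 for other names), against 0.05 over all tested genes. The median difference between the dTet mean and a single control was 0.15 against control replicate 1, 0.96 against control replicate 2 and 0.70 against control replicate 3. For the Me genes it was -0.02 against control replicate 1. The dTet mean was above control replicate 1 for 99 of the 154 members (64.3%, against 49.5% of all tested genes), above control replicate 2 for 133 and above control replicate 3 for 127. For 28 members (18.2%) the difference between the group means was larger than the whole range of the controls, which held for 32.1% of all tested genes.

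**Figure D2:**
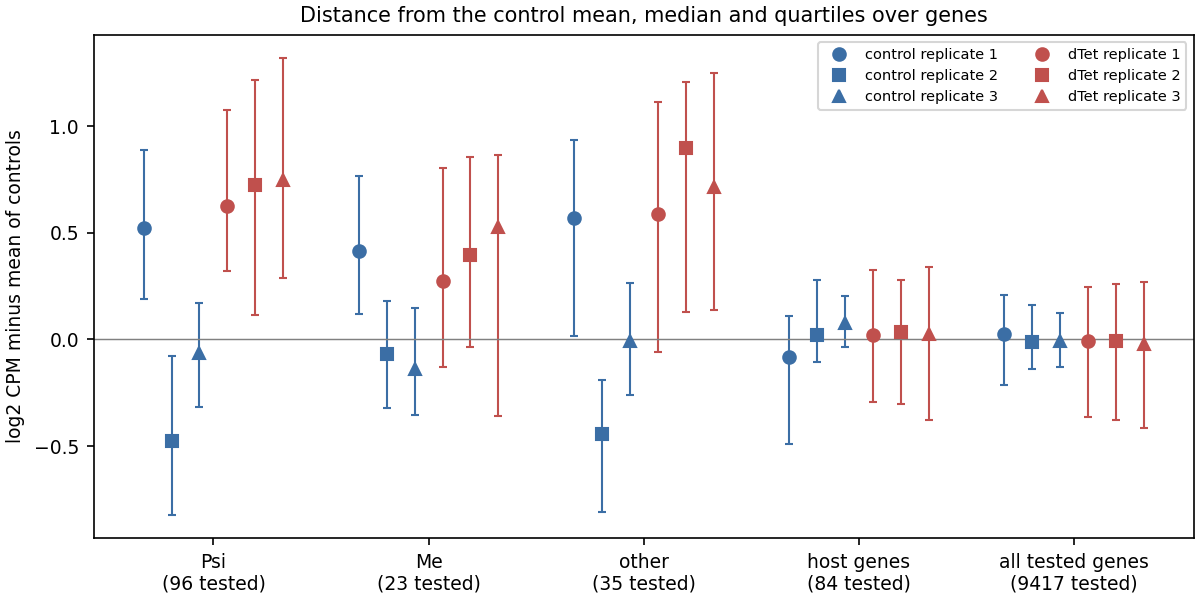
Median over tested genes (points) and quartiles (bars) of log2 CPM minus the mean of the 3 controls, for each library, in Psi, Me and other snoRNA genes, in the host genes of all members and in all tested genes. For Psi genes, control replicate 1 stands at 0.52 and the dTet libraries at 0.62 to 0.75, while control replicate 2 stands at -0.48; the medians of host genes lie between -0.08 and 0.08.

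Tested gene by gene, 7 of the 154 snoRNA genes were higher in dTet and none was lower, at an adjusted p of 0.05 in edgeR's quasi-likelihood test over all genes. All 7 were Psi genes. Of all 9417 genes, 11.4% were called, with 3.77% higher and 7.64% lower, so the share of members called higher, 7 of 154, was near that background. At an unadjusted p under 0.05, 38 members were higher (30 Psi, 3 Me and 5 others) and 0 lower, against 12% of all genes higher. DESeq2 called 16 members and limma-voom 15, all higher and each including the 7, against 6.99% and 4.19% of all genes called higher by the same tools.

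The direction was more widely shared than the calls. The log2 fold change was above 0 for 127 of the 154 members, against 48.1% of all tested genes: for 83 of 96 Psi, 15 of 23 Me and 29 of 35 other genes. The median was 0.66 for Psi, 0.37 for Me and 0.74 for other names, against -0.02 for all tested genes. The snRNA, scaRNA, tRNA and rRNA genes together had values near those of the members: of 39 tested, 31 were above 0, with a median of 0.63, a median SD among controls of 0.72 and a median difference of 0.90 between control replicates 1 and 2, both on the log2 scale. All dTet libraries were above all controls for 45 members (29.2%), against 15.1% of all tested genes, and all below for 3, against 17.6%. Measured against control replicates 2 and 3 only, the first number was 90 of 154 (58.4%), against 28.7% of all tested genes. Members that share a host or a position are not independent of each other. By target, the median was 0.88 for the 36 tested Psi genes assigned to 18S, 0.53 for the 60 assigned to 28S, 0.49 for the 7 tested Me genes of 18S and 0.12 for the 16 of 28S.

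The number of calls rested on single libraries. Without control replicate 1, 36 of 164 tested members were called, all higher, against 14.5% of all genes called higher in that fit. The 36 included the 7 of the main fit, and 29 of them were Psi and 7 had other names. Without control replicate 2 there were 5 of 171, against 1.97%. Leaving out control replicate 3 gave 1 of 172 against 1.40%, and dTet replicate 1 gave 2 of 163 against 2.02%. Without dTet replicate 2 it was 2 of 164 against 1.58%, and without dTet replicate 3 it was 1 of 167 against 1.35%.

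Psi28S-291 was the 1 snoRNA gene that was called in every fit, also with each library left out. It lies on 3R at 11223571 to 11223790, in RpL3, a gene for a protein of the large ribosomal subunit, and is assigned to a uridine of 28S. Its level was 73.8, 59.7 and 71.5 CPM in controls and 164, 136 and 152 CPM in dTet. The 3 controls were close together and well below each dTet library, and control replicate 1 did not stand apart. The log2 fold change was 1.14 (SE 0.13, edgeR adjusted p = 4.01e-04), and 1.18 without control replicate 1. RpL3 itself had a log2 fold change of 0.16 (SE 0.15, edgeR adjusted p = 0.515). Of the 2 Me genes in introns of the same host, Me18S-C1096 had a log2 fold change of 1.53 (SE 0.57, edgeR adjusted p = 0.117) and Me28S-G2017 one of -0.07, both at levels of about 3 CPM or below.

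The other called genes of high level were Psi28S-2566, Psi18S-176 and Psi18S-1820. Psi28S-2566, on 3L at 18896189 to 18896456 within CG3902, was measured at 92.9, 27.4 and 37.4 CPM in controls and at 235, 153 and 167 CPM in dTet. All dTet libraries exceeded all controls, with control replicate 1 above the other controls, and the log2 fold change was 1.81 (SE 0.40, edgeR adjusted p = 0.0183). Its fold of 3.51 became 5.65 without control replicate 1, and the call ended without control replicate 3 (edgeR adjusted p = 0.0826), dTet replicate 1 (0.0706) or dTet replicate 3 (0.0564). The host CG3902 had a log2 fold change of 0.22 (edgeR adjusted p = 0.183).

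Psi18S-176, on 2R with no host on its strand, is the most abundant Psi gene per length, at 80.5 CPM per 100 bases. It was measured at 110.5, 34.3 and 57.8 CPM in controls and at 164, 206 and 172 CPM in dTet. The groups were apart, and the log2 fold change was 1.42 (SE 0.34, edgeR adjusted p = 0.0294). The call ended without control replicate 3 (edgeR adjusted p = 0.117), dTet replicate 1 (0.0692), dTet replicate 2 (0.105) or dTet replicate 3 (0.0844).

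Psi18S-1820 lies on 2R in an intron of Nop60B, the gene for the pseudouridine synthase of the H/ACA particle itself. It was measured at 63.4, 47.9 and 22.4 CPM in controls and at 90.2, 147 and 91.7 CPM in dTet. Every dTet library was above every control, and control replicate 3 was the lowest. The log2 fold change was 1.29 (SE 0.34, edgeR adjusted p = 0.039), and the call remained without control replicate 1 only. With another library left out the adjusted p was 0.0587 without control replicate 3, 0.0702 without dTet replicate 1, 0.0818 without dTet replicate 3, 0.085 without control replicate 2 and 0.144 without dTet replicate 2. Nop60B stood at 335, 212 and 243 CPM in controls and at 387, 348 and 404 CPM in dTet, with a log2 fold change of 0.53 (SE 0.17, edgeR adjusted p = 0.0749).

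**Figure D3:**
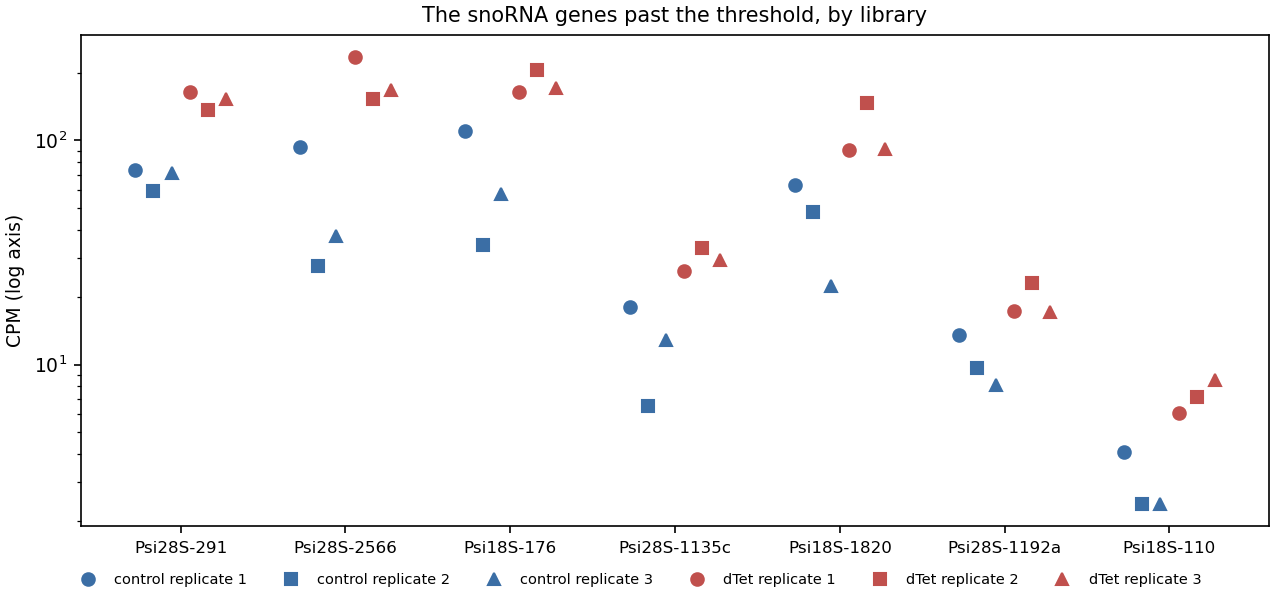
CPM on a log axis of the 7 snoRNA genes past the threshold, in each library (points; blue for control, red for dTet, and shape for the replicate). In all 7 every dTet library lies above every control; for Psi28S-291 the controls lie between 59.7 and 73.8 CPM, and for Psi28S-2566 between 27.4 and 92.9 CPM.

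RpS5a, a gene for a protein of the small ribosomal subunit, holds 14 Psi genes in its introns on X between 17143934 and 17146759. They are copies assigned to 3 positions: Psi28S-1135a to f, Psi28S-1192a to d and Psi18S-1854a to c, with Psi28S-2876 as a single gene. All 14 were tested and 13 had a log2 fold change above 0, with a median of 0.86, while 2 were called. Control replicate 1 was the highest control in all 14, with a median difference of 2.11 to control replicate 2 on the log2 scale.

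The 2 called copies were those with the narrowest control ranges of the 14, taken as the ratio of the highest to the lowest control. Psi28S-1135c was measured at 18.0, 6.52 and 12.9 CPM in controls and at 26.0, 33.2 and 29.2 CPM in dTet, with a log2 fold change of 1.24 (SE 0.31, edgeR adjusted p = 0.0341). Psi28S-1192a was measured at 13.5, 9.65 and 8.11 CPM in controls and at 17.3, 23.0 and 17.1 CPM in dTet, with a log2 fold change of 0.87 (SE 0.23, edgeR adjusted p = 0.0432). In both, all dTet libraries were above all controls. The call of Psi28S-1135c ended without control replicate 3 (edgeR adjusted p = 0.108), dTet replicate 1 (0.0716), dTet replicate 2 (0.116) or dTet replicate 3 (0.104). That of Psi28S-1192a ended without any library other than control replicate 1, at adjusted p-values of 0.0855 to 0.15.

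The copies of Psi18S-1854 had larger fold changes and missed the threshold. Psi18S-1854c stood at 50.5, 6.13 and 8.51 CPM in controls and at 60.5, 101 and 65.9 CPM in dTet. Control replicate 1 was more than 5 times each other control and not far below the lowest dTet library. The log2 fold change was 1.79 (SE 0.66, edgeR adjusted p = 0.117), and without control replicate 1 it was 3.35 (edgeR adjusted p = 1.59e-05). Psi18S-1854b had the same order of libraries, at 18.9, 3.85 and 5.14 CPM in controls and 25.4, 34.4 and 34.0 CPM in dTet, with a log2 fold change of 1.73 (edgeR adjusted p = 0.0581). Psi18S-1854a was lower, at 0.33 to 3.17 CPM in controls and 3.44 to 5.43 CPM in dTet (log2 fold change 1.59, edgeR adjusted p = 0.166).

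The remaining members in RpS5a lay between a log2 fold change of -0.45 for Psi28S-1135a and 1.23 for Psi28S-2876. Of these, Psi28S-1135f showed the control spread most plainly. Its 14.4 CPM in control replicate 1 exceeded all dTet libraries, at 7.23, 8.69 and 9.63 CPM, while control replicates 2 and 3 were at 1.62 and 2.28 CPM. The host gene had the reverse order among controls: RpS5a stood at 3042, 5378 and 5195 CPM in controls and at 3603, 3616 and 3206 CPM in dTet. Control replicate 1 was thus the lowest library for the host and the highest control for its snoRNAs, and the host had a log2 fold change of -0.39 (SE 0.21, edgeR adjusted p = 0.27).

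Sf3b3, which encodes a subunit of a splicing factor, is the host of 3 Psi genes and 1 Me gene on 3L between 830437 and 833209. Its span also holds the members Me28S-C788a and Me28S-G3113a, whose host by smallest span is lncRNA:CR45184. Psi18S-110 was called, at 4.06, 2.40 and 2.40 CPM in controls and 6.10, 7.16 and 8.55 CPM in dTet (log2 fold change 1.30, SE 0.35, edgeR adjusted p = 0.0456). The groups were apart, although the call held only without control replicate 1 among the fits with a library left out, where the other adjusted p-values were 0.0706 to 0.159. Psi18S-1086 had one of the widest control spreads of all members, at 82.2, 4.96 and 18.1 CPM, against 90.2, 142 and 114 CPM in dTet. Its log2 fold change was 1.71 (SE 0.74, edgeR adjusted p = 0.163), and 3.31 without control replicate 1 (edgeR adjusted p = 3.08e-04). Psi28S-3308 and Me28S-A771 had log2 fold changes of 1.07 and 0.67 and were not called. The host stood at 0.19 (SE 0.10, edgeR adjusted p = 0.242).

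Other clusters held no call. In dom, a chromatin remodeller gene with 15 members, the 10 tested had a median log2 fold change of 0.71, and in Arpc2, an actin nucleation gene with 16 members, the 8 tested had a median of 0.83. The medians were 0.57 for the 7 members in RpS7, 0.54 for the 7 in Hrb98DE, 0.43 for the 8 in kra and 0.05 for the 5 in RpS16. The other Psi gene of wide control spread, Psi18S-525e in Arpc2, was near the detection limit, at 1.26, 0 and 0.51 CPM in controls. The lowest Psi fold changes were those of Psi28S-1153 (-0.74), Psi18S-640g (-0.73) and Psi28S-2648 (-0.58). Only the last of these 3 had groups apart, at 4.06, 5.30 and 5.77 CPM in controls and 2.27, 3.93 and 3.91 CPM in dTet, without a call (edgeR adjusted p = 0.341).

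No C/D gene of the Me class was called. Of the 23 tested, 3 had an unadjusted p under 0.05 in edgeR, and DESeq2 and limma-voom also called 0, with 2 at an unadjusted p under 0.05 in each. The most abundant was Me28S-A1322, in an intron of the translation elongation gene eEF1alpha1, at 11.9 CPM per 100 bases. It stood at 9.61, 7.92 and 6.05 CPM in controls and at 9.21, 10.98 and 8.41 CPM in dTet, with overlapping groups and a log2 fold change of 0.28 (SE 0.26). Me28S-A2113 in RpL30, at 5.79 to 8.25 CPM in controls and 6.04 to 7.28 CPM in dTet, had a log2 fold change of -0.07 (SE 0.28). With such standard errors a change of modest size in either direction was not detectable.

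Next in level were Me18S-A1576 in Uhg2 and Me28S-G3253 in RpS9, with log2 fold changes of 0.49 (SE 0.36) and -0.11 (SE 0.43). At the upper end stood Me18S-C1096 in RpL3 (1.53), Me18S-G1620 in Uhg2 (1.5) and Me28S-G2703a in Uhg5 (1.24). At the lower end stood Me28S-G3081a in Uhg1 (-1.23), Me28S-G3255a in Uhg4 (-0.55) and Me28S-C437 in ed (-0.14). These 6 lay at or below 3 CPM in every library. Me28S-G3081a had groups apart, at 1.59, 0.78 and 1.26 CPM in controls and 0.72, 0.38 and 0.44 CPM in dTet, and was not called (edgeR adjusted p = 0.24).

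U3, the C/D-type snoRNA of precursor cleavage, is encoded by 3 genes, all of them tested. Read pairs that matched several of these genes equally were left out of the counts, so the split between them is uncertain. U3:9B, on X at 10348125 to 10348337, gave most of the U3 read pairs that were counted. It stood at 46.4, 3.68 and 22.4 CPM in controls and at 51.7, 57.7 and 55.4 CPM in dTet. The dTet libraries were nearly level and above all controls, whereas the controls spread over more than 10-fold, and the log2 fold change of 1.18 (SE 0.62) was not called (edgeR adjusted p = 0.242). Without control replicate 1 it was 2.06 (edgeR adjusted p = 0.0119).

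The 2 other U3 genes, on 2R, were lower. U3:54Aa stood at 4.06, 2.79 and 4.28 CPM in controls and at 8.13, 6.88 and 7.23 CPM in dTet. Here control replicate 1 was not the highest control, the groups were apart, and the log2 fold change was 1.00 (SE 0.31, edgeR adjusted p = 0.0699). U3:54Ab, at 1.56 to 3.65 CPM in controls and 1.66 to 4.24 CPM in dTet, had overlapping groups, with dTet replicates 1 and 2 above all controls and dTet replicate 3 among them (log2 fold change 0.33, SE 0.52). Together the U3 genes summed to 53.0, 8.03 and 30.3 CPM in controls and to 64.1, 68.5 and 64.3 CPM in dTet.

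Tudor-SN-a, in an intron of the nuclease gene Tudor-SN on 3L at 259970 to 260280, was the most abundant snoRNA gene by far, at 375 CPM per 100 bases. It stood at 1100, 964 and 1284 CPM in controls and at 1218, 1260 and 1168 CPM in dTet. The groups overlapped and control replicate 3 was the highest library, so neither the group difference nor the order of controls seen in most Psi genes was present. The log2 fold change was 0.12 (SE 0.14, edgeR adjusted p = 0.591). Its host Tudor-SN was called, at 685, 539 and 542 CPM in controls and 840, 793 and 881 CPM in dTet (log2 fold change 0.51, SE 0.13, edgeR adjusted p = 0.0379).

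Genes of the remaining names were not called by edgeR, with 5 of 35 at an unadjusted p under 0.05. DESeq2 called 5, namely 229, CG32479-a, CG32479-b, Or-CD2 and U3:54Aa, and limma-voom called the first 4 of these. The gene snoRNA:229 lies on 2R in Fib, the gene for fibrillarin, and stood at 9.80, 2.84 and 2.34 CPM in controls and at 11.6, 21.5 and 18.6 CPM in dTet. The groups were apart, with control replicate 1 near the lowest dTet library, and the log2 fold change was 1.77 (SE 0.51, edgeR adjusted p = 0.0553).

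CG32479-a and CG32479-b lie in Usp10, a deubiquitinase gene on 3L. CG32479-a stood at 22.6, 32.3 and 21.0 CPM in controls and at 38.0, 39.9 and 36.7 CPM in dTet (log2 fold change 0.59, SE 0.18, edgeR adjusted p = 0.0619). CG32479-b stood at 40.6, 18.8 and 23.6 CPM in controls and at 46.7, 47.5 and 51.4 CPM in dTet (0.81, SE 0.25, edgeR adjusted p = 0.0693). In both the groups were apart, yet different controls were the highest, replicate 2 in the first and replicate 1 in the second. Usp10 itself was called in the same direction, with a log2 fold change of 0.57 (SE 0.10, edgeR adjusted p = 0.0065), also with each library left out.

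At the ends of this class, hts-a and Or-CD12 had log2 fold changes of 1.42 and 1.36 at levels of 1.76 CPM or below, with overlapping groups. The lowest were M in sta (-1.66), U14:30Ea in Uhg2 (-1.02) and a gene named by its place on 2R (-0.43). M stood at 0.79, 0.67 and 0.57 CPM in controls and at 0.06, 0.22 and 0.34 CPM in dTet, with groups apart and no call (edgeR adjusted p = 0.21). It overlaps Me28S-G980 on the same strand, and read pairs over both were left out of the counts.

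The 68 members without enough counts (12 Psi, 38 Me and 18 others) were tested in a fit of all genes with 10 or more read pairs. In that fit the same 7 genes were called, none of the 68 was, and 40 of the 222 members had an unadjusted p under 0.05. Of the 222, 57 had no count in at least 1 library, 34 of them Me genes. A count of 0 allows 3 read pairs, which is 0.14 to 0.179 CPM per library, so small differences of such members were not detectable at this depth. One of them, U27:54Ea, in Uhg1 on 2R, had 1, 1 and 0 read pairs in controls and 3, 24 and 15 in dTet. It reached the count minimum only through its dTet read pairs. Its order of groups and any call in that direction are therefore not independent of that selection. Through the same dTet read pairs it entered the fit without dTet replicate 1, where it was called higher (edgeR adjusted p = 0.0459). It was not called in the fit of all genes with 10 or more read pairs (edgeR adjusted p = 0.105).

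Most snoRNA genes had higher fold changes than the genes that hold them. Of 84 tested hosts, 9 (10.7%) were called higher and 1 lower, against 3.77% and 7.64% of all tested genes, with a median log2 fold change of 0.04. None of the 5 hosts of called snoRNA genes (RpL3, CG3902, Nop60B, RpS5a and Sf3b3) was among them. The hosts called higher were dom, Msp300, Stt3A, Tudor-SN, Usp10, tou, AdamTS-A, Idgf4 and Tl, and CG5888 was called lower. Only Idgf4 (log2 fold change 0.95), which encodes a secreted growth factor of the chitinase-like family, and Usp10 kept their calls with each library left out. Without control replicate 1, 45 hosts were called, 18 higher (21.4%, against 14.5% of all genes in that fit) and 27 lower (32.1%). All genes called in that fit were 3231 of 9693, of which 1408 were higher and the rest lower. The number of called hosts was 3 without control replicate 3 or dTet replicate 1, and 2 with any of the other libraries left out.

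For 142 tested members with a tested host, the fold change was above that of the host in 120, and in 59 the member was above 0 while the host was below. Across these 142 pairs the correlation of the log2 fold changes was 0.17 (Pearson, a description over genes that share libraries and, in part, hosts). The contrast was plainest in ribosomal protein genes, which hold 57 of these members. There the members had a median log2 fold change of 0.52 and the 25 hosts one of -0.41, and 51 of 57 members were above their host. In the 34 other hosts the medians were 0.67 for 85 members and 0.22 for the hosts, with 69 members above their host. Member and host were opposite in sign for 43 of the 57 members in ribosomal protein genes, and for 25 of these 85. Relative to the mean of the other controls, control replicate 1 was higher by 0.72 on the log2 scale at the median in members of ribosomal protein genes, and stood at -0.83 in those hosts.

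**Figure D4:**
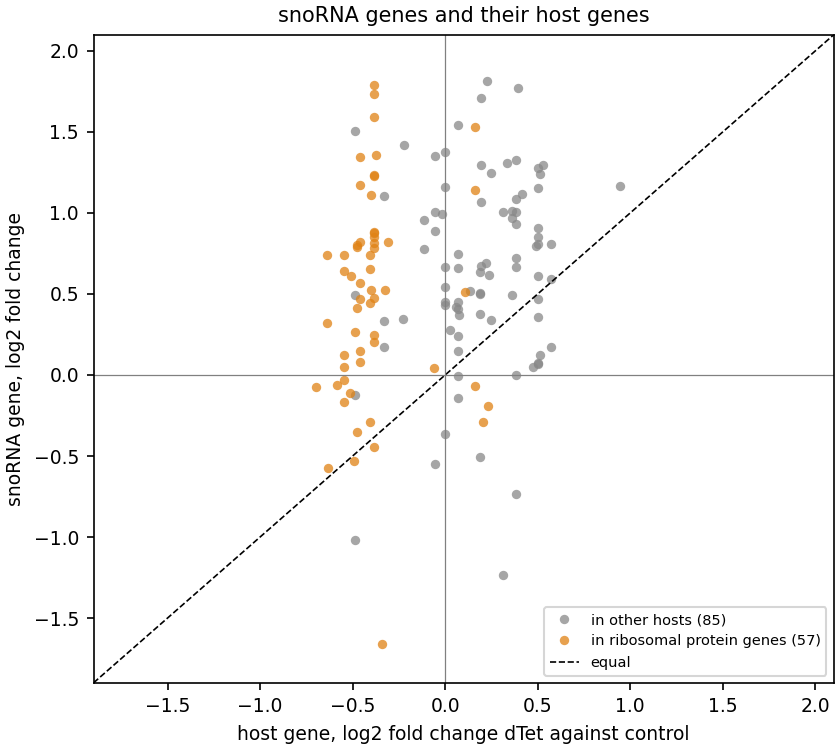
Log2 fold change (dTet against control) of each tested snoRNA gene against that of its host gene, for 57 members in ribosomal protein genes and 85 in other hosts; the dashed line marks equal values. Most points lie above the line, 120 of 142, and the ribosomal protein hosts gather left of 0 with a median of -0.41.

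Length moved with both differences. Among tested genes other than members, those with exons of 300 to 500 bases had a median log2 difference between control replicates 1 and 2 of -0.81, those of 500 to 1000 bases -0.66, those of 1000 to 2000 bases -0.14 and longer ones 0.20. The median log2 fold change of dTet against control followed the same order, at -0.39, -0.36, -0.08 and 0.07. Below 200 bases the sign turned in both: 20 genes of 130 to 200 bases that are not members had medians of 1.68 and 0.93, beside 1.07 and 0.67 for the 111 members of that length. The 28 members under 100 bases, none of them a Psi gene, had medians of 0.67 and 0.35. At 200 to 300 bases members and other genes parted. The 7 members there had medians of 0.66 and 1.00, and the 22 other genes had 0.20 and -0.007. The part of length in the snoRNA differences was not tested.

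**Figure D5:**
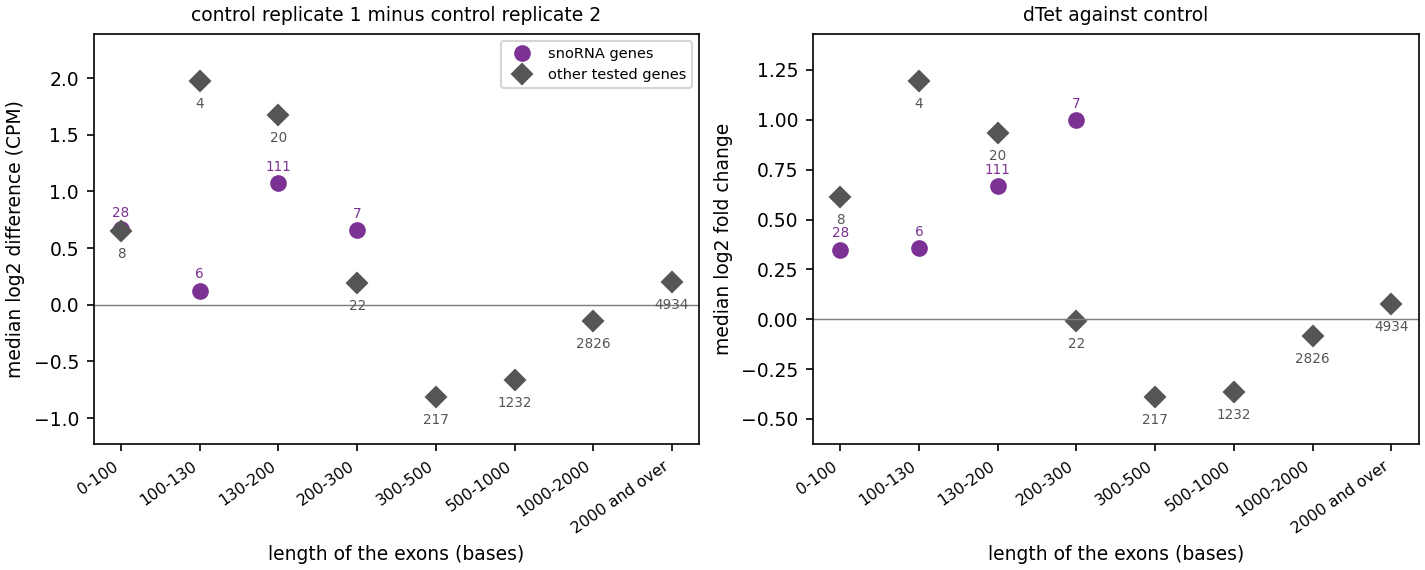
Median log2 difference between control replicates 1 and 2 (left) and median log2 fold change of dTet against control (right) by total exon length, for snoRNA genes and other tested genes; the number at each point is its number of genes, and bins under 4 genes are not drawn. In both panels genes under 200 bases lie above 0 and genes of 300 to 1000 bases below 0, with 0.67 on the right for the 111 snoRNA genes of 130 to 200 bases.

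Of 42 tested genes in 6 lists of snoRNP, ribosome making and RNA polymerase I genes, 3 (7.14%) were called, all higher, against 3.77% of all tested genes called higher. Among the 4 H/ACA core proteins, CG4038, the Gar1 protein, was higher (log2 fold change 1.06, edgeR adjusted p = 0.0473), whereas Nop60B (0.53), CG7637, the Nop10 protein (-0.53), and NHP2 (-0.55) were not called. Of the 4 C/D core proteins none was called, with log2 fold changes of 0.40 for Fib, 0.38 for Nop56, 0.41 for nop5 and -0.31 for hoip. The others called were Mat89Ba (0.55, edgeR adjusted p = 0.0342), a factor of the small subunit processome in which U3 acts, and pit (0.59, edgeR adjusted p = 0.0282), a helicase of ribosome making. None of 6 snoRNP assembly factors, 7 RNA polymerase I genes or 6 tested Uhg genes was called. These 3 calls held only without control replicate 1 among the fits with a library left out. In that fit 28 of the genes were called, 23 higher (54.8%, against 14.5% of all genes) and 5 lower (11.9%). All genes called there were 3231 of 9693, of which 1408 were higher. With any other library left out, 0 of the listed genes were called.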

How the data were processed

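Per the file headers, the authors made the deposited counts with featureCounts 2.0.6 on the FlyBase 6.45 annotation, as whole read pairs per gene over exons, with both mates mapped and strand setting 2. Pairs matching several places or genes were left out by that program's defaults. The submitters' processing notes name FastQC 0.12.1, HISAT2 2.2.0 and the dm6 build, and the labels' protocols name a stranded total RNA kit. Rows without a gene name were not present. Gene lengths and coordinates are those of the deposited table.

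Counts of all genes were tested in R 4.3.3 with edgeR 4.0.16 (filterByExpr, TMM, quasi-likelihood test, no covariates, Benjamini-Hochberg over the 9417 tested genes, threshold 0.05). CPM values use TMM-scaled library sizes, and log2 CPM a prior count of 2. The standard error is the log2 fold change divided by the root of F. A host is the gene of smallest span that holds the snoRNA on its strand. DESeq2 1.42.0, limma-voom (limma 3.58.1), other scalings and filters, a replicate block and each library left out were alternatives. The floor given for a count of 0 covers counting error only, and read pairs carry no molecular identifiers.

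The members, lists, tests and named genes were chosen with earlier results of these data known. Named were all called members, all U3 genes, in each class the 4 of highest level and the 3 highest and 3 lowest fold changes, the 3 of widest control spread, neighbours of the count minimum, members sharing a host with a called one, and those hosts. Other hosts were named to spell out a count, and Or-CD2, RpS7, Hrb98DE, kra, dom, Arpc2 and RpS16 after their values were seen. Of 82 listed symbols, 2 matched no gene. Sequences of the snoRNAs were not analysed here.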

Additional observations from a re-analysis of the deposited data

How the results depend on the processing

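The number of snoRNA genes called, 7, was 7 under DESeq2's size factors, upper quartile scaling, scaling without small RNA genes, and filters at 10 counts or at 1 CPM, and each time the same 7. It was 15 with no filter on low counts, 16 with DESeq2 and 15 with limma-voom, with 11 Psi in each and 4, 5 and 4 of other names. With a library left out it was 1 to 36 in all, 1 to 29 for Psi and 0 to 7 for other names, and Me stayed at 0 in every fit. All genes called, 1074 of 9417, became 1401 of 13531 with no filter. They became 1733 with DESeq2, 1116 with limma-voom and 560 to 3231 with a library left out. Of all genes, 3.07% were called higher with no filter, 6.99% with DESeq2 and 4.19% with limma-voom. Called hosts became 19 with DESeq2 and 2 to 45 with a library left out. Called snoRNP and ribosome making genes became 9 with no filter, 13 with DESeq2 and 0 to 28 with a library left out. The cause was not tested.

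The same replicate number does not pair the samples: deviations of same-numbered libraries correlated at 0.03, 0.02 and -0.10. With a replicate block 13 snoRNA genes were called, 6 of them among the 7 (Psi18S-110 not), 3 of other names, and 3 hosts. In that fit 902 of all 9417 genes were called, and 2.96% of all genes were called higher.

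Chosen after seeing the data, a comparison with control replicate 1 alone gave a median log2 difference of 0.15 over the members, -0.021 for Me (reversed) and 0.14 for other names. With a library left out the Me median was between 0.23 and 0.71. The sum of other names without Tudor-SN-a had a ratio of 1.85. For 54 named genes, other alternatives left the direction and call unchanged in 452 values, added a call in 23 and ended 1; with a library left out these numbers were 284, 13 and 26. Depth limits the Me class, with a median of 44 read pairs per gene.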
